A study of Danio rerio with 2 samples.

Results

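The transcripts described here were abundant among ribosome footprints of the blastula and at least 4-fold lower at the end of gastrulation. They numbered 169 of the 24573 zebrafish (Danio rerio) transcripts measured. Members were selected on their footprint TPM. A transcript was taken when its mean over both libraries was at least 100 and below 1000 TPM and its log2((bud TPM + 1)/(sphere TPM + 1)) was at most -2. TPM, transcripts per 1000000, is a length-corrected share of footprints that sums to 1000000 in each library. The fall from sphere to bud is therefore a description and was not tested.

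Ribosome profiling sequences the mRNA fragments that translating ribosomes shield from nuclease. Wild-type TLAB embryos were sampled at sphere (4 hpf, hours post fertilisation; labelled blastula) and at bud (10 hpf; labelled gastrula) under unperturbed growth. Each library came from 200 whole embryos lysed with tigecycline and cycloheximide (100 µg/ml of each), which arrest elongating ribosomes on the mRNA. There was 1 library per stage, so the spread between embryo pools is unknown and p-values are not given.

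In the early fish embryo, protein synthesis first relies on mRNAs that the mother placed in the egg. During the maternal-to-zygotic transition many of these mRNAs are cleared while the zygotic genome takes over. The routes include codon-dependent decay, which can itself involve loss of the poly(A) tail. Other mRNAs are made only briefly when zygotic transcription starts. Footprint values alone do not assign an mRNA to any of these classes. A footprint TPM is moved by the amount of an mRNA and by the ribosomes on each copy, which cannot be told apart from footprints alone. The study also sequenced mRNA of both stages, which was not used here. In whole embryos, fewer cells using an mRNA and less mRNA per cell likewise cannot be told apart. TPM is also relative to each library's total, so it gives no absolute number of ribosomes.

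The table identifies transcripts by Ensembl ID alone. None of the IDs (0 of 24573) was found in the gene name tables used here, so no gene name, protein or sequence is given and the stage labels were not checked against marker genes. Only a pair of IDs is printed, and other members are described by their rank and values.

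The member with the highest sphere level, ENSDART00000052541, had 1883 TPM in sphere and 76.2 TPM in bud. This was a log2 ratio of -4.61, and 4.04% of its sphere TPM was left in bud. The member with the deepest fall, ENSDART00000187371, had 563 TPM in sphere and 0.486 TPM in bud, a log2 ratio of -8.57. It kept 0.0863% of its sphere TPM. The first was thus still clearly covered in bud after a large fall, and the second had almost no footprints left.

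Over all members, sphere levels ran from 174 to 1883 TPM with a median of 309 TPM. Bud levels ran from 0 to 232 TPM with a median of 40.6 TPM. The quartiles were 219 and 494 TPM in sphere and 22.4 and 62.4 TPM in bud. The rule sets each member apart between the stages, but as a group the bud levels also overlapped the low end of the sphere levels, from 174 TPM upward. The member with the highest bud level, 232 TPM, had 1747 TPM in sphere.

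**Figure D1:**
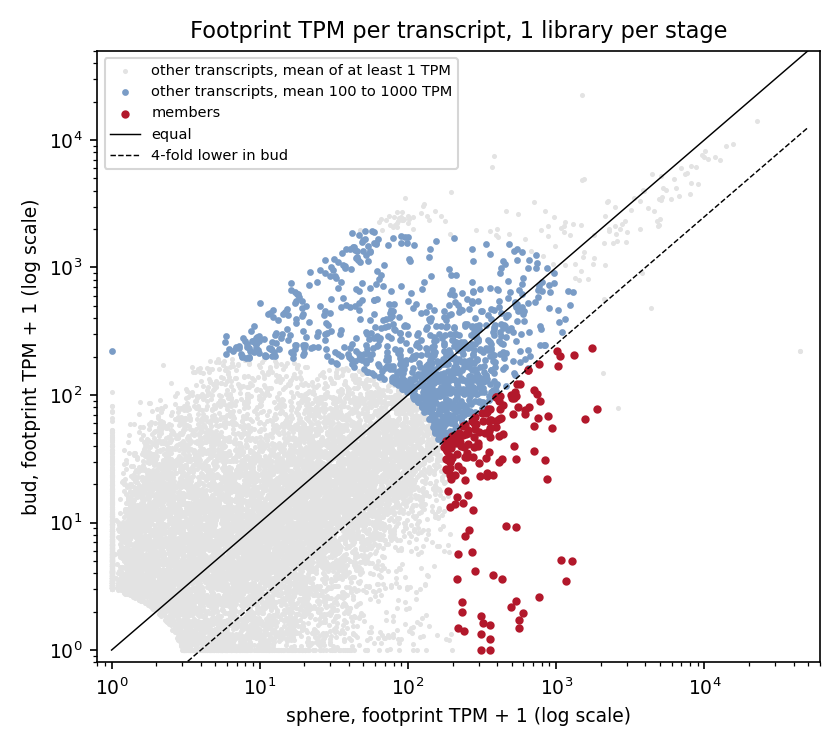
Footprint TPM + 1 in sphere (x axis) and bud (y axis), both on log scales, 1 point per transcript averaging 1 TPM or more; members are red, other transcripts with a mean of 100 to 1000 TPM blue and the rest grey. The 169 members lie on or below the dashed 4-fold line, and 26 of them form a tail below 5 TPM in bud.

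The members were 169 of the 1196 transcripts with a mean of 100 to 1000 TPM, which is 14.1% of that abundance band. This percentage is the rule's own outcome. Of all 13561 transcripts that averaged 1 TPM or more, 15.5% fell at least 4-fold and 20.6% rose at least 4-fold, so the frequency of such falls in the band was near that of the whole table. The share was 12.2% at a mean of 1 to 10 TPM, 19.1% at 10 to 100 TPM and 4.20% among the 143 transcripts of at least 1000 TPM. In the opposite direction, 22.4% of the band was at least 4-fold higher in bud. Of the 437 band transcripts that differed 4-fold, 61.3% were thus higher in bud. This balance depended on the scaling and turned when the most abundant transcripts were taken out of both totals, which gave 535 lower and 361 higher transcripts (40.3% higher). It did not turn when entries sharing both of their values with another were taken out, with 224 lower and 255 higher (53.2% higher).

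The depth of the fall was uneven. The median log2 ratio of the members was -2.77, a 6.82-fold decrease on the TPM + 1 scale, with quartiles at -3.86 and -2.31. The median over all transcripts tested was -0.0067, and that over the other 1027 transcripts of the band was 0.12. Most members lay near the threshold, and 100 of them (59.2%) had log2 ratios between -3 and -2. Another 30 lay between -4 and -3 and 10 between -5 and -4. The counts then reached 6 between -6 and -5 and 5 between -7 and -6. They were larger again further down, at 10 between -8 and -7 and 8 between -9 and -8.

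**Figure D2:**
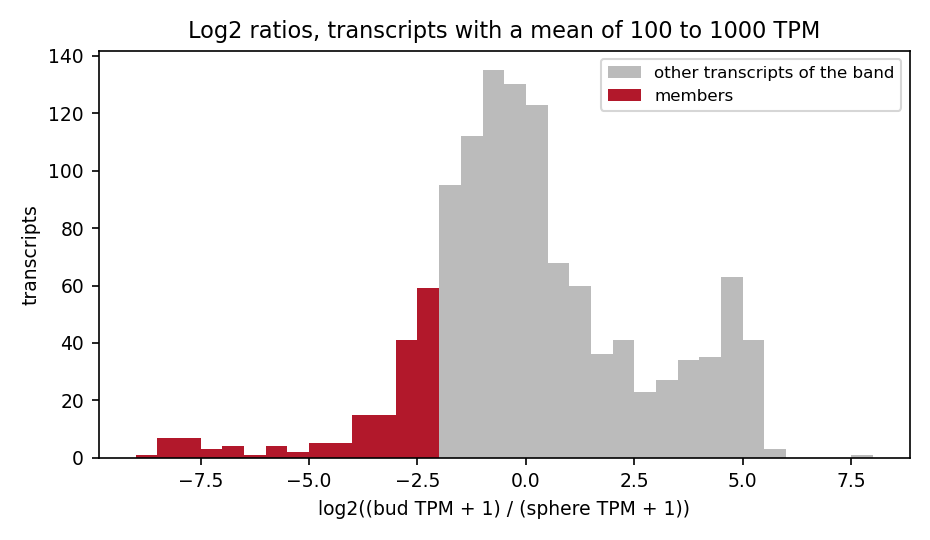
Histogram of log2((bud TPM + 1)/(sphere TPM + 1)) for the 1196 transcripts with a mean of 100 to 1000 TPM, in steps of 0.5, members in red. The members' counts decline from -2 toward -5, and a small second group, where the added 1 TPM limits the ratio, lies between -9 and -7.

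The lower end of this distribution is shaped by the added 1 TPM. A member at the median sphere level that is listed at 0 in bud would have a log2 ratio of -8.28, so ratios near -8 cannot spread further at that level. Ratios of sphere to bud TPM without the added value also became more frequent again among the deepest falls. Most of these deepest ratios divide by a bud level of a few TPM or less, and members listed at 0 have no such ratio. How far the second group of ratios rests on the added value was not tested. The bud levels, which carry no added value, showed no such second group but a main group with a long, thin tail. In classes that double in width, 31 members had 16 to 32 TPM in bud, 63 had 32 to 64 TPM and 31 had 64 to 128 TPM. Below these, 8 members had 8 to 16 TPM, 5 had 4 to 8 TPM, 6 had 2 to 4 TPM and 4 had 1 to 2 TPM. Another 13 were below 1 TPM. A limit of 5 TPM is used below to describe the end of this tail. It was placed after the values had been seen and does not mark a break in them.

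What remained in bud differed by member. The 143 members with 5 TPM or more in bud had a median of 45.0 TPM there, from 6.89 to 232 TPM, against a median of 297 TPM in sphere. Their sphere TPM was 4.07 to 64.8 times their bud TPM, with a median of 6.21. Together they kept 14.1% of their summed sphere TPM. For comparison, all transcripts tested had a bud median of 10.6 TPM and an upper quartile of 32.2 TPM. The other 1027 transcripts of the band had a bud median of 197 TPM and a lowest value of 42.3 TPM. The 143 members were split off by their bud level, and the rule holds all members low in bud.

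The 26 members below 5 TPM in bud, 15.4% of all members, had lost nearly all footprints. Their sphere levels ran from 212 to 1277 TPM with a median of 356 TPM. The rule has a part in this, since a transcript this low in bud needs more TPM in sphere to reach the required mean. Their bud levels ran from 0 to 4.90 TPM with a median of 1.07 TPM. Where bud was above 0, the sphere value was 46.2 to 1552 times the bud value, with a median of 402. Summed over these 26 transcripts, 12047 TPM in sphere became 43.6 TPM in bud, so that 0.362% of the sphere sum remained.

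Among them, 2 members were listed at 0 in bud, with 356 and 309 TPM in sphere. No fold is given for these, since TPM does not show how many footprints a 0 excludes. TPM does not show sequencing depth. By the methods of the study, the bud library had the larger number of aligned reads, so the low bud values come from the deeper library. Of all 169 members, 58 were at least 10-fold and 22 at least 100-fold lower in bud without any added value, counting those listed at 0.

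**Figure D3:**
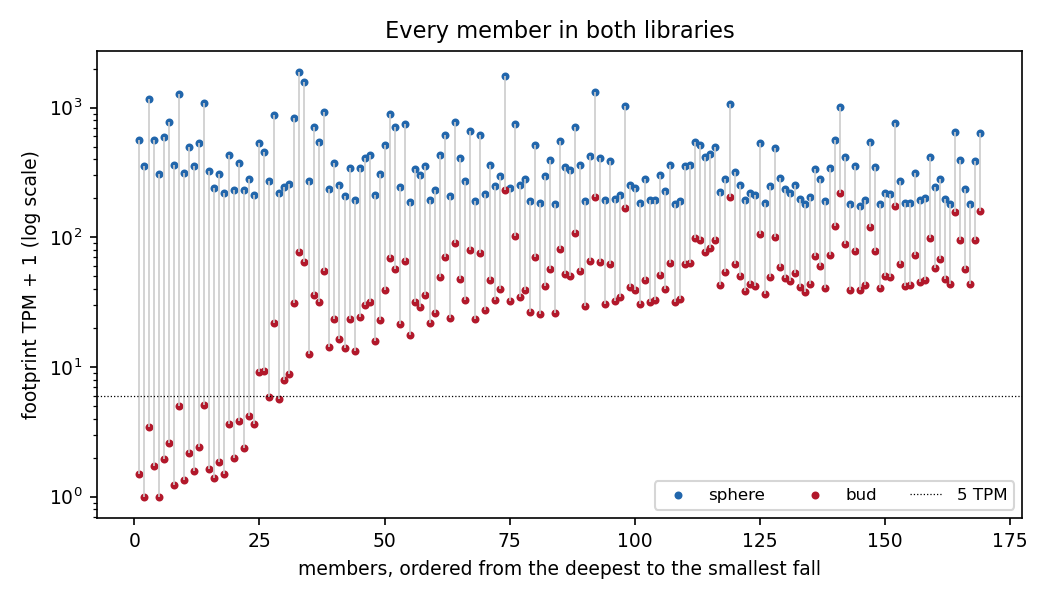
Sphere (blue) and bud (red) footprint TPM + 1 on a log scale for each of the 169 members, ordered from the deepest fall on the left; the dotted line marks 5 TPM. Sphere points form a band from 174 to 1883 TPM along the whole order. Bud points drop below 5 TPM only among the deepest falls, which the required mean fixes in advance.

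The 268 transcripts of the band that were at least 4-fold higher in bud offer a mirror to this, measured in the same libraries. Their lower value, that in sphere, had a median of 32.6 TPM and was below 5 TPM in 4 transcripts (1.49%). Among the members the lower value had a median of 40.6 TPM and was below 5 TPM in 15.4%. That limit had been placed on the members' own values. By the median ratio the change was larger in the transcripts higher in bud. Their median log2 ratio was 4.16 with quartiles at 3.05 and 4.80, against -2.77 with quartiles at -3.86 and -2.31 for the members. These differences were not tested, since both sets were cut from the same pair of libraries.

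The place of the members in each library changed accordingly. In sphere they ranked between 66 and 721 of all transcripts, with a median rank of 346, and 8 were among the 100 highest. In bud the best rank of any member was 564 and the median rank was 2826. None of the members was among the 500 highest of bud and 8 were among the 1000 highest. The rule sets much of this change in rank, since it bounds the mean and requires a bud level at least 4-fold lower. The 26 members below 5 TPM had a median bud rank of 12820, where 17891 transcripts were above 0.

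As a share of the translated pool, the members made up 6.91% of footprint TPM in sphere and 0.808% in bud. They were 1.15% of the transcripts above 0 in sphere. The summed TPM was 69068 in sphere and 8084 in bud, an 8.54-fold decrease that left 11.7% of the sphere sum. A decrease of at least 4-fold was fixed by the rule. The 143 members of 5 TPM or more accounted for 5.70% of sphere TPM and 0.804% of bud TPM. The 26 near-lost members accounted for 1.205% of sphere TPM and 0.00436% of bud TPM. These bud shares follow in part from the split itself, which was made on bud TPM.

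**Figure D4:**
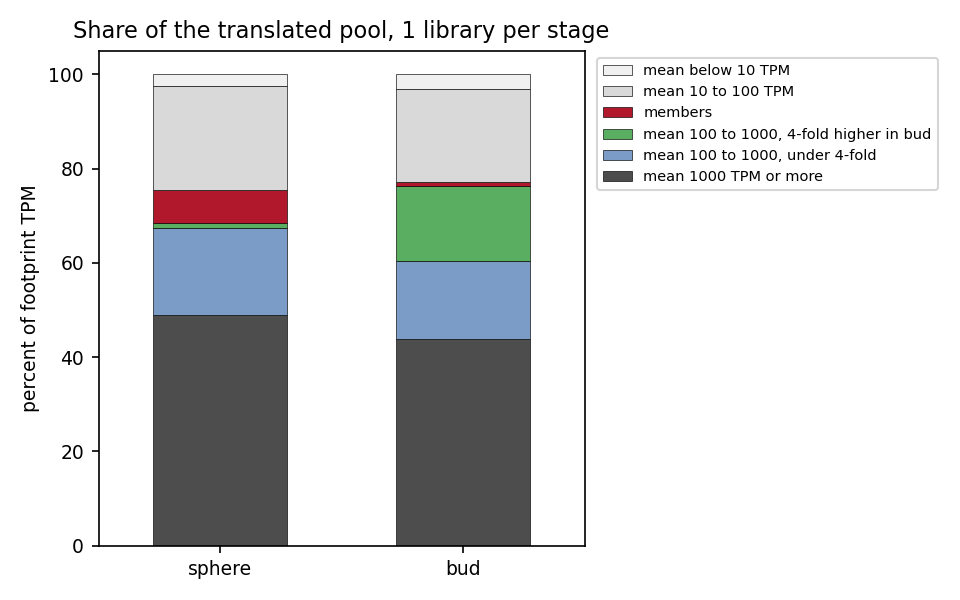
Percent of footprint TPM (y axis, from 0) held in each library by transcripts of different mean levels, with the band of 100 to 1000 TPM split into members (red), transcripts at least 4-fold higher in bud (green) and the rest (blue). The members' segment shrinks from 6.91% in sphere to 0.808% in bud, while the green segment goes from 1.16% to 16.04%.

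The sphere share was spread over many members. The 10 highest in sphere held 19.0% of the members' sphere TPM, and 44 members were needed to reach 50% of it. These 10 had 1016 to 1883 TPM in sphere and 2.46 to 232 TPM in bud. Of these, 3 fell below 5 TPM and 5 stayed among the 10 members highest in bud. The 3 that fell below 5 TPM went from 1277 to 4.00 TPM, from 1157 to 2.46 TPM and from 1082 to 4.05 TPM. In bud, the 10 highest members held 21.7% of the members' TPM.

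The rest of the pool differed by part. The 268 transcripts of the band that were at least 4-fold higher in bud went from 1.16% of the sphere pool to 16.04% of the bud pool, a larger difference than that of the members. The 759 transcripts of the band that differed less than 4-fold made up 18.4% of the sphere pool and 16.4% of the bud pool. Transcripts averaging 1000 TPM or more made up 48.9% and 43.9%. The lower share in bud rested on a pair of entries with identical values, which held 8.83% of the sphere pool. Each entry of this pair had 44155 TPM in sphere and 221 TPM in bud. Within the members' own sphere range there were 487 other transcripts, which made up 18.9% of the sphere pool and 24.2% of the bud pool. Their median log2 ratio was -0.56, with quartiles at -1.29 and 0.21, so most were lower in bud although their summed share was higher. Leaving out the members, which were chosen by their fall, raises this sum in part by construction. Of the 487 transcripts, 11 were also at least 4-fold lower in bud but had a mean outside the band.

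Among the members, a higher sphere level went with a higher bud level (Spearman's rho = 0.351 over 169 members) and with a somewhat deeper fall (rho = -0.298 with the log2 ratio). These correlations describe transcripts of the same 2 libraries, and the band and the threshold restrict both axes. The threshold sets a ceiling on bud TPM that rises with sphere TPM. The first correlation and the bud medians given below are therefore in part built in. The log2 ratio also contains the sphere TPM, so the second correlation is in part built in as well. From the lowest to the highest quartile group by sphere level, the median log2 ratios were -2.52, -2.85, -2.74 and -3.12, not a steady course. Among the 43 members lowest in sphere (174 to 219 TPM) the median bud level was 32.2 TPM, and 3 of them were below 5 TPM. The 42 members highest in sphere (499 to 1883 TPM) had a median bud level of 72.5 TPM, and 8 of them were below 5 TPM. The lowest class is affected by the rule, since a transcript that is lost from bud reaches a mean of 100 TPM only from 200 TPM in sphere.

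The frequency of such falls was then read at fixed sphere level, over all transcripts and without the limit on the mean. Sphere TPM is also part of the ratio, so classes chosen on it favour falls. The median log2 ratio was negative in every class, from -1.24 to -0.54, against -0.0067 over all transcripts tested. The shares that follow therefore cannot be set beside those counted on the mean. At 100 to 200 TPM in sphere, 249 of 798 transcripts (31.2%) were at least 4-fold lower in bud, of which 31 were members. At 200 to 300 TPM it was 50 of 236 (21.2%), and at 300 to 500 TPM 47 of 159 (29.6%). At 500 to 1000 TPM it was 31 of 98 (31.6%) and at 1000 to 2000 TPM 10 of 38 (26.3%). Between 200 and 2000 TPM every transcript that fell 4-fold was a member. The rule largely fixes this, since such a fall from these levels mostly leaves a mean inside the band. Above 2000 TPM the fall was seen in 6 of 65 transcripts (9.23%), none of them a member because their means exceeded the band. These 6 include the pair of entries with identical values (44155 TPM in sphere and 221 TPM in bud, each). Falls to below 5 TPM in bud made up 3.39% to 7.89% of transcripts in the classes from 100 to 2000 TPM.

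**Figure D5:**
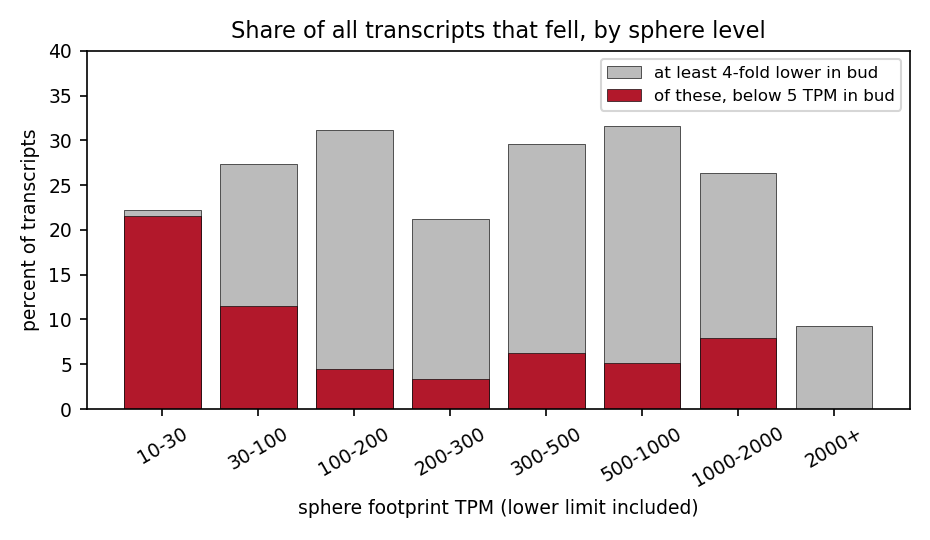
Percent of all transcripts in each class of sphere TPM (x axis) that were at least 4-fold lower in bud (grey) and, of these, below 5 TPM in bud (red). The grey bars lie between 21.2% and 31.6% in the classes from 10 to 2000 TPM, and the bar above 2000 TPM is at 9.23%; below 100 TPM a 4-fold fall itself often ends under 5 TPM.

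Some near-lost members stood next to each other in the table. A run of 4 members occupied consecutive lines, with 768, 532, 376 and 356 TPM in sphere and 1.61, 1.41, 2.85 and 0 TPM in bud. The lines directly before and after this run were no members, yet they fell too, from 106 to 0.362 TPM and from 43.2 to 0.324 TPM. Of the 26 near-lost members, 6 (23.1%) had another of them within 5 lines, and 4 of these 6 were the run itself. Of the other 143 members, 8 (5.59%) had another of that group within 5 lines. Among the 268 transcripts that were 4-fold higher in bud, this held for 53 (19.8%). These shares cannot be compared with each other, because a neighbour is likelier in a larger set. A share for random sets of each size was not computed. What the order of the table stands for was not stated. The values in the run differed, and none of the members shared both of its values with another entry (0 of 169), as 337 transcripts of the table did. By the methods of the study, footprints were aligned uniquely, but whether the TPM rest on unique reads alone was not stated. In the whole table, 46 transcripts had a value above 0 and below 0.001 TPM in either library. How near-identical genes were treated was not tested.

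The threshold cut through a continuous distribution. The members just inside it had log2 ratios of -2.04, -2.03 and -2.02, going from 178 to 42.7 TPM, from 390 to 94.7 TPM and from 640 to 157 TPM. The transcripts just outside it had ratios between -1.9985 and -1.9895, with 176 to 43.2 TPM, 240 to 59.7 TPM and 640 to 160 TPM. The values on both sides were alike in level. The near-lost members had log2 ratios of -5.26 or lower. Their distance from the limit follows from the split, since under 5 TPM in bud the required mean is reached only with a deep fall.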

How the data were processed

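Ribosome footprints of zebrafish embryos were measured in 1 sphere and 1 bud library. Per the methods of the study, reads were trimmed (Cutadapt), filtered against ribosomal RNA (Bowtie) and aligned uniquely to GRCz11 (STAR 2.6.1c), with 1 principal transcript per gene. The deposited values are TPM, scaled to 1000000 per library by the authors, so depth is unknown from the table. The tool that computed them from footprints was not stated; the submitters' processing notes also name kallisto 0.44.0. Libraries were assigned to stages by the sample labels.

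Ratios were computed as log2((bud + 1)/(sphere + 1)) with Python 3.11.15 and pandas 2.3.3, a scale that understates the change of low transcripts. Shares are summed TPM over the column total. TPM are not counts, and each stage had 1 library, so no test was made. The selection was checked on simulated data in which the stages were equal apart from planted falls and counting noise. This shows only that the rule was applied as written and does not speak to the reliability of the members. The members and alternatives were chosen with earlier results of these data known. The rule for described members (the 10 highest in sphere, the deepest falls, those listed at 0 in bud, those highest in bud and those next to the threshold) gave the examples, of which 2 IDs are printed. Planned counts by gene list, stage markers and sequence features were not made, because the IDs were not paired with names or sequences here. The deposited table of codon dwell times holds no transcripts and was not used.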

Additional observations from a re-analysis of the deposited data

How the results depend on the processing

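Each stage had 1 library, so no library could be left out and no value is known to exceed the variation between embryo pools. No paired analysis was possible because the groups compared held a single library each. Counts and shares within 1.5 times the reported value were taken as kept. Of 27 values obtained under other planned settings, several of them used for more than 1 result, 17 stayed within this limit, 10 moved and 0 reversed the direction. No setting could reverse it, since each selected falls, and counts and shares carry no sign. Centring the ratios subtracted a median of only -0.0067, so that setting could change little. Of 6 more values, from checks chosen after seeing the data, 4 stayed and 2 moved. Rescaling after removal of the 142 transcripts among the 100 highest of a library gave 535 members and 23.7% of the band, and the members' shares over that smaller total were 11.6% in sphere and 1.25% in bud. By construction this raises all remaining TPM and brings more transcripts into the band, and it moved the median log2 ratio of the transcripts tested by -0.20; of the 161 members left, 159 were chosen again. With the band set on the sphere library alone, 377 transcripts (29.2%) were chosen. A mean of at least 50 TPM gave 447 members. A threshold of -3 gave 69 members with 3.33% of sphere and 0.150% of bud TPM, a median log2 ratio of -4.44 and 4.51% of the summed sphere TPM left in bud, since it keeps the deeper falls by construction. Under the other settings tried for them, the median log2 ratio was between -2.86 and -2.71 and the share left in bud between 12.1% and 14.5%. Without the entries that share both values with another, a pair of which held 8.83% of sphere TPM, 224 members were chosen.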
